A study of Mus musculus with 12 samples.

Results

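A set of 10 temperature-responsive genes was followed in mouse liver, 8 of them genes of the heat shock response (Hspa1a, Hspa1b, Hspa8, Hsp90aa1, Hsph1, Dnajb1, Hspb1 and Hspb8) and 2 of them cold-inducible RNA-binding protein genes (Cirbp and Rbm3). They were chosen by symbol, and all 10 were found, with 1 line each, among the 23849 gene symbols of the RNA-seq table. The 12 livers came from male C57BL/6J mice that were 8 weeks old at the start, were all fed a high-fat diet (HFD), and were treated for 2 weeks with vehicle or with Libramed. Libramed is the label's name for Policaptil Gel Retard, a blend of gel-forming dietary fibers given by daily gavage shortly before lights off. The livers were taken at ZT0 (zeitgeber time 0, lights on, the end of the active phase) or at ZT12 (lights off, when mice begin to eat), which gave 4 groups of 3 mice: vehicle ZT0, vehicle ZT12, Libramed ZT0 and Libramed ZT12. All groups shared the diet, and no group on normal chow was among the samples, so the HFD itself cannot be compared.

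Heat shock proteins are chaperones, which bind unfolded proteins and help them fold or be removed. Their stress-induced transcription is driven mainly by heat shock factor 1 (HSF1), which is held inactive by chaperones, is released when misfolded proteins accumulate, and then binds inverted repeats of GAA in the promoters of its targets. CIRBP and RBM3 are small RNA-binding proteins whose mRNAs accumulate at mildly lowered temperature and decline with warming. In mouse liver both kinds of transcript are known to follow the daily rhythm of body temperature in opposite phases, with the heat-induced ones high at night, when mice are active and warm, and the cold-induced ones high in the resting phase.

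The promoters of 5 of the genes are shown: heat-induced genes in which a heat shock element pair was found, and Cirbp, in which none was. Dnajb1 and Hspb8, also heat-induced, held no pair and are not shown, so the set does not separate the 2 kinds of gene. Each is the 250 bases before the annotated start, on the gene's strand and read 5′ to 3′, from RefSeq (GRCm38.p6). Capitals mark each heat shock element pair, spelled GAANNTTC or TTCNNGAA, which are the same on both strands.
Hspa1a: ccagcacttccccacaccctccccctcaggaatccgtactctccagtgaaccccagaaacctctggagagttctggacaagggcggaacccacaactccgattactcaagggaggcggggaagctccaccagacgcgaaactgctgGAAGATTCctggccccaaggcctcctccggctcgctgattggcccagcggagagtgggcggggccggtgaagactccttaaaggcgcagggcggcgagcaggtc
Hspa1b: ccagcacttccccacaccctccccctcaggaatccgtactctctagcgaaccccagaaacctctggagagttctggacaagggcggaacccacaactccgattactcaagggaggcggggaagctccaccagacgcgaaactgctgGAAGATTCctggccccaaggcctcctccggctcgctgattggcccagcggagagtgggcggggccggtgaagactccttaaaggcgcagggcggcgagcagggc
Hsph1: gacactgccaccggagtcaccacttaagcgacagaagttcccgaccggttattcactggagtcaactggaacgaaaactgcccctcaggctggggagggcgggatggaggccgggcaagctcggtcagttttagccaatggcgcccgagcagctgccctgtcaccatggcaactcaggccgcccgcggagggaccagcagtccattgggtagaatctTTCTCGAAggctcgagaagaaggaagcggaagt
Hspb1: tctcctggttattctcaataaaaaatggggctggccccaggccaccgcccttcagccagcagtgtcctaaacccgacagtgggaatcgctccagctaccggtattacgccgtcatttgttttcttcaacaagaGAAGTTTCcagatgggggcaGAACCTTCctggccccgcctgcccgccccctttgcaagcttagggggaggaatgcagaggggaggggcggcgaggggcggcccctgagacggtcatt
Cirbp: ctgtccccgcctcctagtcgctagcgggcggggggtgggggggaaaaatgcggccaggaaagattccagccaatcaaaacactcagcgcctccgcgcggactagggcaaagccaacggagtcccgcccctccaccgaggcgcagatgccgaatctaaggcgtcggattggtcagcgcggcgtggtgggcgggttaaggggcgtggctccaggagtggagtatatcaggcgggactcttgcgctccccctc

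These windows lie at chr17:34972157-34972406 (minus strand, Hspa1a), chr17:34959239-34959488 (minus strand, Hspa1b), chr5:149636337-149636586 (minus strand, Hsph1, the first of 2 listed starts), chr5:135887669-135887918 (plus strand, Hspb1) and chr10:80167589-80167838 (plus strand, Cirbp, the first of 2 listed starts). The starts are those of RefSeq, while the gene spans given further below are those of GENCODE. The Cirbp window therefore lies inside its GENCODE span (80165985 to 80172786), not upstream of it. The Hsph1 window overlaps the end of its span (149636376). The Hspa1a and Hspa1b windows each held 1 pair, GAAGATTC, beginning 104 bases before the start. The Hsph1 window held TTCTCGAA, 33 bases before its start, and the Hspb1 window held 2 pairs, GAAGTTTC and GAACCTTC, 117 and 97 bases before the start. The Hspa1a and Hspa1b windows differed at 3 of 250 positions, C44T, T47C and T249G, with the base of Hspa1a first and positions counted from 1 at the 5′ end. No pair was found in the windows of Cirbp, Dnajb1 or Hspb8. Of the 10 genes 7 had a promoter in the reference table, and Hspa8, Hsp90aa1 and Rbm3 were not among them. By these letters 12.9% of 27025 promoters held at least 1 pair, as did 10.3% of the promoters of the genes tested here.

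Values are FPKM, fragment counts divided by transcript length and library size, so levels can be set side by side between genes, though only roughly. Several of the 10 genes share much of their sequence with other transcripts, as given for each below. How far this moved their levels was not tested. The depth of the libraries was not given. Relative depth was read from genes of very low level, as the most common ratio between vehicle ZT0 replicate 1 and each library. It spanned 1.78 times from the shallowest to the deepest library. Of 8 hepatocyte markers 7 were detected, and Alb was listed at 0 in all 12 libraries. The time labels held against most clock genes, since 7 of 8 evening genes rose from ZT0 to ZT12 in each treatment (limma, adjusted p under 0.05). Of all genes 5.62% were called higher in vehicle mice and 7.00% in Libramed mice. Of 4 morning genes tested, 3 were called lower in each treatment, beside 4.78% and 5.36% of all genes. Cry1, the other morning gene, was higher at ZT12 over both treatments by 0.61 (adjusted p of limma 0.0224). One library stood apart: Libramed ZT12 replicate 3 held skeletal muscle transcripts, with 10 of 10 muscle markers above 0 and a summed level of 70.7 FPKM, against 1 to 3 markers and 1.07 to 1.73 FPKM in the other 11 libraries. Acta1, skeletal muscle actin, was at 16.4 FPKM there and at 0 in the other 11. Log2 differences of the 10 genes that include that library are therefore given with and without it, as is Pearson's r over the 12 mice. In the pooled comparisons this was done for the median and for some genes only. Spearman's rho, the correlations within groups and the permutation p are given with all libraries only. In tissue RNA, fewer cells of a type and less RNA per cell cannot be told apart.

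Averaged over the 12 mice, Hspa8 was the most abundant of the 10 at 172 FPKM, followed by Hspb8 at 127 FPKM. A middle group followed, with Hsph1 at 24.5, Hspb1 at 21.8, Hspa1b at 15.9, Cirbp at 14.8, Dnajb1 at 13.9 and Hsp90aa1 at 12.5 FPKM. Rbm3 at 3.50 FPKM and Hspa1a at 2.03 FPKM were lowest. Neighbours within the middle group overlapped in their ranges over mice, as did Hspa8 and Hspb8. The range of single mice differed more than the means: the highest level was 68.3 times the lowest for Hspa1a and 11.8 times for Hspa1b, but 1.93 times for Cirbp, 1.87 times for Hspb8 and 1.82 times for Rbm3.

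**Figure D1:**
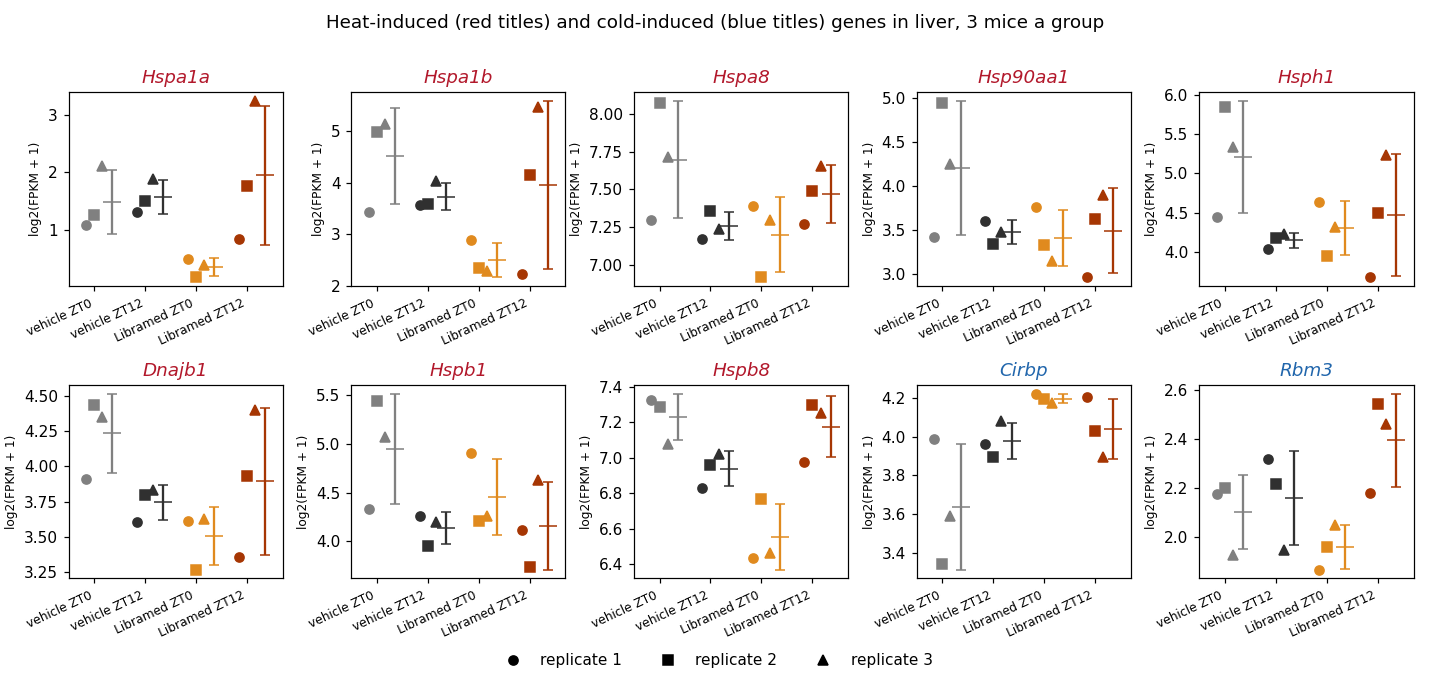
Each panel plots log2(FPKM + 1) of 1 gene in the 4 groups; symbols are single mice (circle, square and triangle for replicates 1, 2 and 3), and the bar beside them is the mean ± SD of 3 mice. In 4 of the 8 heat-induced genes all Libramed ZT0 mice lie below all vehicle ZT0 mice, and for Cirbp they lie above; the widest spread is within vehicle ZT0 and Libramed ZT12.

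Hspa1a and Hspa1b encode the stress-inducible forms of the cytosolic chaperone Hsp70 and sit 9952 bases apart on chromosome 17 (Hspa1a at 34969190 to 34972156, Hspa1b at 34956436 to 34959238, minus strand, GRCm38). Hspa1b was at 9.86, 30.6 and 34.2 FPKM in vehicle ZT0 replicates 1, 2 and 3, at 10.8, 11.0 and 15.4 FPKM in vehicle ZT12, at 6.41, 4.06 and 3.84 FPKM in Libramed ZT0, and at 3.68, 16.9 and 43.6 FPKM in Libramed ZT12. The 3 Libramed ZT0 mice were all lower than the 6 vehicle mice, while the Libramed ZT12 mice held both the lowest and the highest value of all 12. Hspa1a was at 1.11, 1.39 and 3.34 FPKM in vehicle ZT0, at 1.47, 1.84 and 2.70 FPKM in vehicle ZT12, at 0.399, 0.124 and 0.295 FPKM in Libramed ZT0, and at 0.779, 2.41 and 8.48 FPKM in Libramed ZT12. The Libramed ZT0 mice were below every other mouse. The highest value of both genes was in the library that held muscle transcripts. The 2 transcripts share 48.6% (Hspa1a) and 49.9% (Hspa1b) of their 100-base windows, so reads can be divided between them uncertainly, and the ratio of Hspa1b to Hspa1a ranged from 4.72 to 32.7 over mice. Hspa1a also overlaps an exon of Gm20481 on the opposite strand.

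Hspa8 (chromosome 9, 40800984 to 40810087, plus strand) encodes the constitutive Hsp70, the form cells use in the absence of stress. It was at 156, 269 and 209 FPKM in vehicle ZT0, at 143, 163 and 150 FPKM in vehicle ZT12, at 166, 120 and 156 FPKM in Libramed ZT0, and at 153, 179 and 200 FPKM in Libramed ZT12. Vehicle ZT0 replicates 2 and 3 were above all other mice, and every pair of groups overlapped. It varied less than the inducible Hsp70 genes, with 2.24 times between the lowest and the highest mouse. Of its 100-base windows 62.8% also occur in transcripts of other genes, most often in the pseudogene Gm15459, and 3 small nucleolar RNAs lie within it.

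Hsp90aa1 (chromosome 12, 110690605 to 110702728, minus strand) encodes the inducible Hsp90, which matures kinases and steroid receptors, and Hsph1 (chromosome 5, 149614287 to 149636376, minus strand) encodes Hsp110, a nucleotide exchange factor that recharges Hsp70. Hsph1 was at 20.8, 56.5 and 39.2 FPKM in vehicle ZT0, at 15.4, 17.2 and 17.7 FPKM in vehicle ZT12, at 23.9, 14.5 and 18.9 FPKM in Libramed ZT0, and at 11.8, 21.6 and 36.4 FPKM in Libramed ZT12. All 3 vehicle ZT0 mice were above all 3 vehicle ZT12 mice, and the 2 highest of the 12 were vehicle ZT0 replicates 2 and 3. Hsp90aa1 was at 9.76, 29.9 and 18.1 FPKM in vehicle ZT0, at 11.2, 9.13 and 10.2 FPKM in vehicle ZT12, at 12.6, 9.08 and 7.86 FPKM in Libramed ZT0, and at 6.82, 11.3 and 13.9 FPKM in Libramed ZT12. The same 2 vehicle ZT0 mice were highest, and replicate 1 of that group lay within the range of every other group. Of the windows of Hsp90aa1 47.5% occur in other transcripts, and none of Hsph1.

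Dnajb1 (chromosome 8, 83608193 to 83612653, plus strand) encodes an Hsp40 co-chaperone that delivers unfolded clients to Hsp70. It was at 14.0, 20.7 and 19.4 FPKM in vehicle ZT0, at 11.2, 12.9 and 13.3 FPKM in vehicle ZT12, at 11.2, 8.64 and 11.4 FPKM in Libramed ZT0, and at 9.25, 14.3 and 20.1 FPKM in Libramed ZT12. Vehicle ZT0 did not overlap with vehicle ZT12 or with Libramed ZT0, while Libramed ZT12 spanned nearly the whole range.

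The small heat shock proteins hold unfolded proteins without using ATP, and HSPB8 acts together with BAG3 in the removal of damaged proteins by autophagy. Hspb8 (chromosome 5, 116408491 to 116422864, minus strand) was at 159, 155 and 134 FPKM in vehicle ZT0, at 113, 124 and 129 FPKM in vehicle ZT12, at 85.3, 108 and 87.2 FPKM in Libramed ZT0, and at 125, 156 and 152 FPKM in Libramed ZT12. The 3 Libramed ZT0 mice were the lowest of the 12. Hspb1 (chromosome 5, 135887919 to 135889563, plus strand) was at 19.1, 42.6 and 32.7 FPKM in vehicle ZT0, at 18.2, 14.5 and 17.4 FPKM in vehicle ZT12, at 29.1, 17.5 and 18.1 FPKM in Libramed ZT0, and at 16.4, 12.3 and 23.8 FPKM in Libramed ZT12. Vehicle ZT0 lay above vehicle ZT12 for Hspb1, and all other pairs of groups overlapped. Of the windows of Hspb1 42.7% occur in other transcripts, mainly the pseudogene Hsp25-ps1, and none of Hspb8.

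Cirbp (chromosome 10, 80165985 to 80172786, plus strand) ran the other way. It was at 14.8, 9.15 and 11.0 FPKM in vehicle ZT0, at 14.6, 13.9 and 15.9 FPKM in vehicle ZT12, at 17.7, 17.3 and 17.0 FPKM in Libramed ZT0, and at 17.4, 15.3 and 13.9 FPKM in Libramed ZT12. Its 2 lowest values were in vehicle ZT0 replicates 2 and 3, the mice with the 2 highest values of Hspa8, Hsp90aa1, Hsph1 and Hspb1, and the Libramed ZT0 mice lay close together above every vehicle mouse. Rbm3 (chromosome X, 8138975 to 8145880, minus strand) was at 3.52, 3.60 and 2.81 FPKM in vehicle ZT0, at 3.99, 3.65 and 2.86 FPKM in vehicle ZT12, at 2.65, 2.90 and 3.14 FPKM in Libramed ZT0, and at 3.53, 4.82 and 4.51 FPKM in Libramed ZT12. Unlike Cirbp it was lowest in mean in Libramed ZT0, where it did not overlap with Libramed ZT12. An exon of Rbm3 overlaps Rbm3os on the opposite strand.

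**Figure D2:**
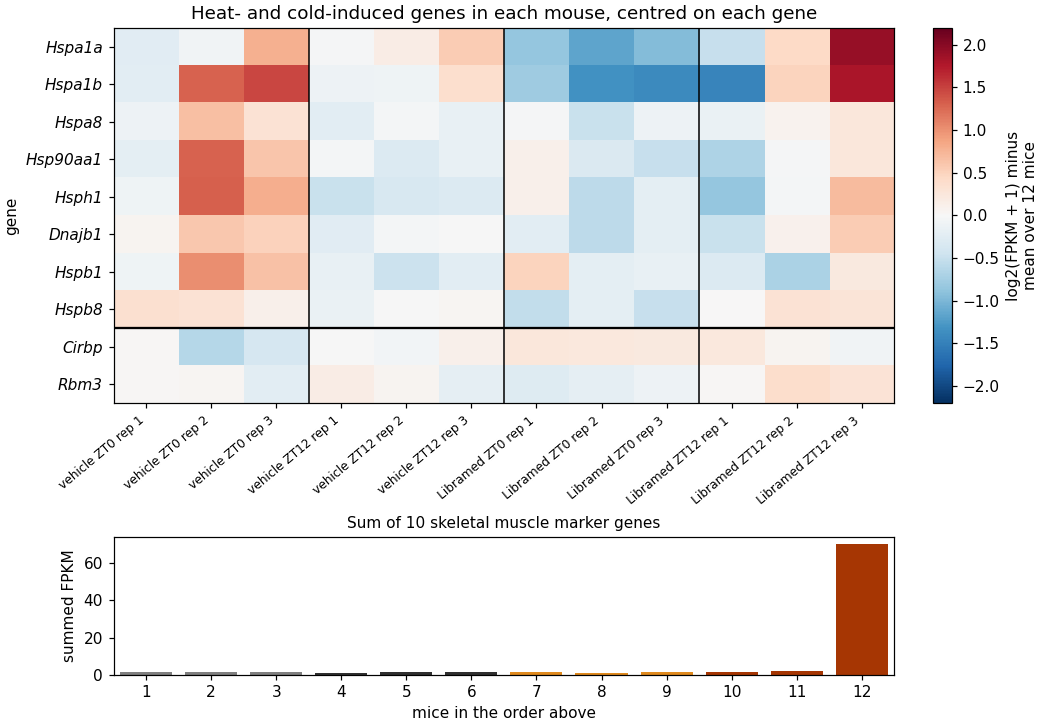
Upper panel: log2(FPKM + 1) of each gene minus its mean over the 12 mice, with mice in columns by group; lower panel: summed FPKM of 10 skeletal muscle markers in the same mice. Vehicle ZT0 replicates 2 and 3 are above the mean for the heat-induced genes, except replicate 2 for Hspa1a, and low for Cirbp, and the highest Hspa1a and Hspa1b values are in the library with a muscle sum of 70.7 FPKM.

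The treatment comparison at ZT0 asked how the genes stood at the end of the active phase with and without Libramed. All 8 heat-induced genes were lower in mean with Libramed, with a median log2 difference of -0.76 beside -0.02 over all 9806 genes tested, and Cirbp was higher by 0.56 (SE 0.16). The log2 differences are of log2(FPKM + 1), which understates low genes such as Hspa1a. In linear terms the mean of Hspa1b was 24.9 ± 13.1 FPKM (SD, n = 3) with vehicle and 4.77 ± 1.42 with Libramed, a ratio of 5.21, and that of Hspb8 was 150 ± 13.5 FPKM and 93.5 ± 12.6, a ratio of 1.60. Cirbp stood at 11.7 ± 2.90 FPKM with vehicle and 17.3 ± 0.321 with Libramed. None of the 10 genes passed the test across all genes by limma at an adjusted p under 0.05, nor did any other gene (0% of 9806 called). The unadjusted p was under 0.05 for 6 of the 10 (Hspa1a, Hspa1b, Hsph1, Dnajb1, Hspb8 and Cirbp), beside 9.23% of all genes, and a version of the Cyber-T test, which pools the variance of genes of like level, called 3 of the 10 (Hspa1a, Hspa1b and Dnajb1), beside 0.704% of all genes.

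By size, the log2 difference between Libramed and vehicle at ZT0 was -2.02 (SE 0.44) for Hspa1b, -1.14 (SE 0.26) for Hspa1a, -0.91 (SE 0.35) for Hsph1, -0.79 (SE 0.36) for Hsp90aa1 and -0.73 (SE 0.17) for Dnajb1. It was -0.68 (SE 0.13) for Hspb8, -0.50 (SE 0.21) for Hspa8 and -0.49 (SE 0.31) for Hspb1. The smallest adjusted p of limma was 0.295, for Hspb8. The groups did not overlap for Hspa1a, Hspa1b, Dnajb1 and Hspb8, which were lower in all 3 Libramed mice, and for Cirbp, which was higher in all 3. By this rule 15.1% of all genes did not overlap, with 9.94% of all genes lower and 5.19% higher. Rbm3 differed by -0.14 (SE 0.11) and overlapped, so the 2 cold-induced genes did not share a direction. With Hspa1a and Hspa1b summed into 1 value, the difference was -2.06 (SE 0.43, adjusted p of limma 0.311). A permutation of 3 against 3 mice cannot give a two-sided p below 0.1, which limits single-gene tests here.

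At ZT12 the 2 treatments were closer together. All 8 heat-induced genes were higher in mean with Libramed, with log2 differences from 0.02 (Hsp90aa1) to 0.38 (Hspa1a) and a median of 0.22, beside -0.01 over all genes. Every one of the 10 genes overlapped between the groups, as did all but 13.1% of all genes. No gene of the 10 passed limma's test (0% of all genes called), none had an unadjusted p under 0.05 (6.74% of all genes did), and the Cyber-T test called none of the 10 (0.235% of all genes). Without the muscle-bearing library, 6 of the 8 had the other sign (Hspb1 -0.21, Hsp90aa1 -0.18, Hspa1a -0.26, Hspa1b -0.54, Dnajb1 -0.10 and Hsph1 -0.06), and the median was -0.14. Hspb8 (0.20) and Hspa8 (0.12) kept theirs. Cirbp differed by 0.06 (SE 0.10) and Rbm3 by 0.23 (SE 0.14), and without that library by 0.14 and 0.20.

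**Figure D3:**
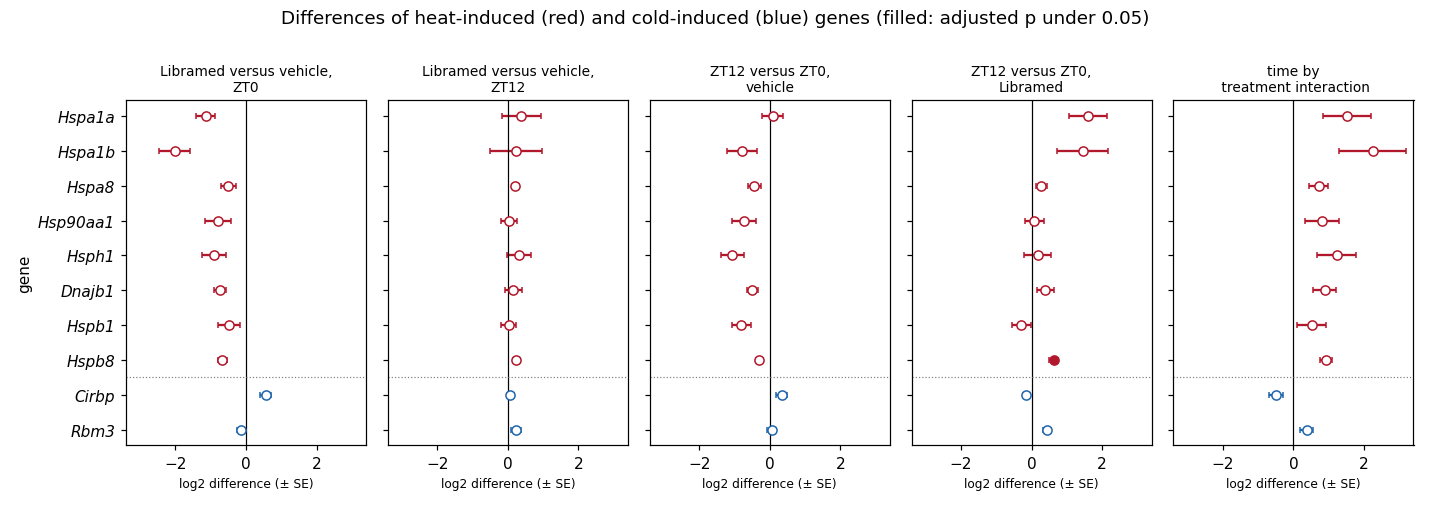
Log2 differences with SE (horizontal bars) for the 10 genes in 4 pairwise comparisons and for the interaction, the time difference with Libramed minus that with vehicle; filled points have an adjusted p under 0.05 by limma. The heat-induced genes (red) lie left of 0 for treatment at ZT0 and right of 0 for the interaction, Cirbp (blue) lies opposite, and the single filled point is Hspb8 from ZT0 to ZT12 with Libramed.

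Over the day in vehicle mice, 7 of the 8 heat-induced genes were lower in mean at ZT12 than at ZT0 (median log2 difference -0.61, beside 0.01 over all genes). Hsph1 differed most, at -1.06 (SE 0.32), from 38.9 ± 17.9 to 16.8 ± 1.20 FPKM, followed by Hspb1 at -0.81 (SE 0.27), Hspa1b at -0.79 (SE 0.43) and Hsp90aa1 at -0.73 (SE 0.35). Dnajb1 differed by -0.49 (SE 0.15), Hspa8 by -0.44 (SE 0.19), Hspb8 by -0.29 (SE 0.10) and Hspa1a by 0.08 (SE 0.29). Hsph1, Dnajb1, Hspb1 and Hspb8 did not overlap between the times (33.2% of all genes did not, and 15.8% of all genes did not and were lower). Cirbp was higher at ZT12 by 0.34 (SE 0.16) and Rbm3 by 0.06 (SE 0.13), and both overlapped. No gene of the 10 passed limma's test, where 10.4% of all genes did. The unadjusted p was under 0.05 for 4 of the 10, beside 27.4% of all genes, and the Cyber-T test called 4 (Hsp90aa1, Hsph1, Dnajb1 and Hspb1), beside 14.1% of all genes.

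One mouse decided the calls in this comparison. For Hspa1b, Hspa8, Hsp90aa1, Hsph1 and Hspb1, vehicle ZT0 replicate 1 stood nearer to the ZT12 mice than replicates 2 and 3 of its own group did. Without it 7 of the 10 genes were called by limma (Hspa1b, Hspa8, Hsp90aa1, Hsph1, Dnajb1 and Hspb1 lower at ZT12, Cirbp higher), beside 8.69% of all genes. The median of the heat-induced genes was then -0.89, and without replicate 2 it was -0.37. The same 3 vehicle ZT0 mice enter the treatment comparison at ZT0, where the median was -1.04 without replicate 1 and -0.61 without replicate 2.

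Over the day in Libramed mice, Hspb8 rose and was the only one of the 10 genes called by limma, where 12.4% of all genes were. Its level was 93.5 ± 12.6 FPKM at ZT0 and 144 ± 17.0 at ZT12, a log2 difference of 0.62 (SE 0.13, adjusted p 0.0247), and it was higher in 3 of 3 mice at ZT12 than in any at ZT0. Over the other settings tried its adjusted p ran from 0.00205 to 0.0747, and without the muscle-bearing library the difference was 0.58 with an adjusted p of 0.0793. Rbm3 was higher at ZT12 by 0.43 (SE 0.12, adjusted p of limma 0.0540) and Hspa1a by 1.61 (SE 0.54, adjusted p 0.0962), neither overlapping between the times. By that rule 34.9% of all genes did not overlap, with 19.0% of all genes higher.

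The other heat-induced genes overlapped between the times with Libramed. Hspa1b differed by 1.45 (SE 0.72), Dnajb1 by 0.39 (SE 0.25), Hspa8 by 0.27 (SE 0.15), Hsph1 by 0.17 (SE 0.37), Hsp90aa1 by 0.08 (SE 0.26) and Hspb1 by -0.30 (SE 0.27). In all, 7 of 8 were higher at ZT12, with a median of 0.33, beside 0.01 over all genes, and the unadjusted p was under 0.05 for 3 of the 10 (29.2% of all genes). The Cyber-T test called 4 of the 10 (Hspa1a, Hspa1b, Hspb8 and Rbm3), beside 16.2% of all genes. Without the muscle-bearing library the median was 0.16, Hspa1b differed by 0.69, Hspa1a by 0.96, and Hsph1 and Hsp90aa1 had the other sign (-0.21 and -0.12). Hspa8 then differed by 0.18, Dnajb1 by 0.14, Hspb1 by -0.53 and Rbm3 by 0.40. Cirbp differed by -0.15 (SE 0.10) with all libraries and by -0.08 without that one.

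The interaction tested directly whether the time difference depended on the treatment. It was positive for all 8 heat-induced genes, with a median of 0.90 on the log2 scale (0.00 over all genes), positive for Rbm3 at 0.37 (SE 0.18), and negative for Cirbp at -0.49 (SE 0.20). By limma none of the 10 passed the adjusted threshold (0% of all genes called), and 7 of the 10 had an unadjusted p under 0.05, beside 6.63% of all genes. The Cyber-T test was not run on the interaction. Hspb8 had an interaction of 0.92 (SE 0.17, adjusted p of limma 0.337) and an exact permutation p of 0.01. That p is from 400 arrangements of the treatment labels within each time, where 0.005 is the smallest possible. Such a shuffle assumes no treatment effect at either time, so it does not test the interaction alone. Hspa8 had 0.71 (SE 0.26, adjusted p of limma 0.665) and an exact permutation p of 0.03. For the other 8 genes the exact permutation p ran from 0.065 (Dnajb1, interaction 0.88) to 0.31 (Hspb1, 0.51).

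The interaction of the inducible Hsp70 genes was smaller without the muscle-bearing library. It was 2.24 (SE 0.94) for Hspa1b and 1.53 (SE 0.68) for Hspa1a with all 12 libraries, and 1.48 and 0.88 without that one. Hsph1 stood at 1.22 (SE 0.54) and at 0.84 without it, Hsp90aa1 at 0.81 (SE 0.48) and 0.61, and Hspb8 at 0.92 and 0.88. Without it Dnajb1 stood at 0.63, Hspa8 at 0.62, Hspb1 at 0.28, Rbm3 at 0.34 and Cirbp at -0.42. The median over the 8 was 0.74 without it, and 3 of the 10 genes then had an unadjusted p under 0.05 (Hspa8, Hspb8 and Dnajb1), beside 6.38% of all genes. The part of muscle RNA in these values was not tested. That count was not particular to the muscle-bearing library. It was also 3 without vehicle ZT0 replicate 2, Libramed ZT0 replicate 2 or Libramed ZT12 replicate 2, beside 686, 631 and 606 of all 9806 genes. Without vehicle ZT0 replicate 1 or Libramed ZT12 replicate 1 it was 9, beside 896 and 665 of all genes.

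Pooled over times, Libramed and vehicle differed by -0.29 in the median of the heat-induced genes, all 8 lower (beside -0.02 over all genes). None of the 10 passed limma's test, where 0.0204% of all genes did, and 1 of the 10 had an unadjusted p under 0.05 (10.1% of all genes). That one was Cirbp, higher by 0.31 (SE 0.12, adjusted p of limma 0.427, exact permutation p 0.04). Without the muscle-bearing library the median was -0.49, and 4 of the 10 had an unadjusted p under 0.05 (Cirbp 0.37, Dnajb1 -0.45, Hspa1a -0.75 and Hspa1b -1.36), beside 11.8% of all genes, with none called.

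Pooled over treatments, ZT12 and ZT0 differed by -0.07 in the median of the heat-induced genes, 3 higher and 5 lower. For 6 of the 8 the time difference had opposite signs in the 2 treatments, while Hspb1 was lower at ZT12 in both and Hspa1a higher in both. Again none passed (29.7% of all genes did), and 2 of the 10 had an unadjusted p under 0.05 (41.0% of all genes). Rbm3 was higher at ZT12 by 0.25 (SE 0.10, exact permutation p 0.05) and Hspb1 lower by 0.55 on the log2 scale, written as a difference of -0.55 (SE 0.21, exact permutation p 0.06). Without the muscle-bearing library the median was -0.19, Rbm3 differed by 0.21, and Hspb1 was called by limma at -0.69 (adjusted p 0.0257), where 25.9% of all genes were. The Cyber-T test was not run on the pooled comparisons.

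Across single mice, Cirbp ran opposite to some of the heat-induced genes, and 2 of these relations, with Dnajb1 and Hspa1b, passed after adjustment by both measures. Over the 12 mice, on the log2 scale, Cirbp and Dnajb1 had Pearson's r = -0.83 (permutation p 0.00032, adjusted over 9 relations 0.00231) and Spearman's rho = -0.78 (permutation p 0.00414, adjusted 0.0186), and r = -0.74 without the 2 mice with the most extreme Cirbp. Cirbp and Hspa1b had r = -0.78 (permutation p 0.00146, adjusted 0.00279), rho = -0.82 (permutation p 0.00192, adjusted 0.0173) and r = -0.79 without those 2 mice. For Hsp90aa1 (r = -0.88), Hspa8 (r = -0.85) and Hsph1 (r = -0.83) the relation rested on vehicle ZT0 replicates 2 and 3, without which r was -0.44, -0.47 and -0.42. Their rho was -0.64, -0.61 and -0.57, with adjusted permutation p of 0.0683, 0.0712 and 0.0768. Hspb1 had r = -0.67, which turned to 0.20 without those mice, and rho = -0.41 (permutation p 0.184). Hspa1a had r = -0.45 (permutation p 0.149), r = -0.76 without those mice, and rho = -0.66 (permutation p 0.0214, adjusted 0.0641). Without the muscle-bearing library r was -0.89 for Dnajb1, -0.85 for Hspa1b, -0.88 for Hsp90aa1, -0.86 for Hspa8, -0.85 for Hsph1, -0.66 for Hspb1, -0.54 for Hspa1a, -0.57 for Hspb8 and -0.15 for Rbm3.

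After centring each gene on its group means, r between Cirbp and Dnajb1 was -0.70 (exact permutation p within groups 0.0301, adjusted 0.0949), with Hspa8 -0.84 (exact p 0.0201, adjusted 0.0949) and with Hspa1b -0.68 (exact p 0.081, adjusted 0.146). None of the 9 relations passed the adjusted threshold within groups. Hspb8 had r = -0.57 with Cirbp over the 12 mice, -0.64 without vehicle ZT0 replicates 2 and 3, and -0.07 within groups. Rbm3, the other cold-induced gene, had r = -0.17 with Cirbp (permutation p 0.61) and rho = -0.41 (permutation p 0.195). Without vehicle ZT0 replicates 2 and 3 the r of Rbm3 was -0.69, so the 2 cold-induced genes ran opposite in the remaining mice. The ratio of Hsph1 to Cirbp set the 2 kinds against each other in 1 number per mouse. It was 1.40, 6.18 and 3.55 in vehicle ZT0, 1.06, 1.24 and 1.11 in vehicle ZT12, 1.35, 0.837 and 1.11 in Libramed ZT0, and 0.681, 1.41 and 2.63 in Libramed ZT12. By this ratio 3 mice stood above 2, 2 of them vehicle ZT0 mice and the third the muscle-bearing Libramed ZT12 library.

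**Figure D4:**
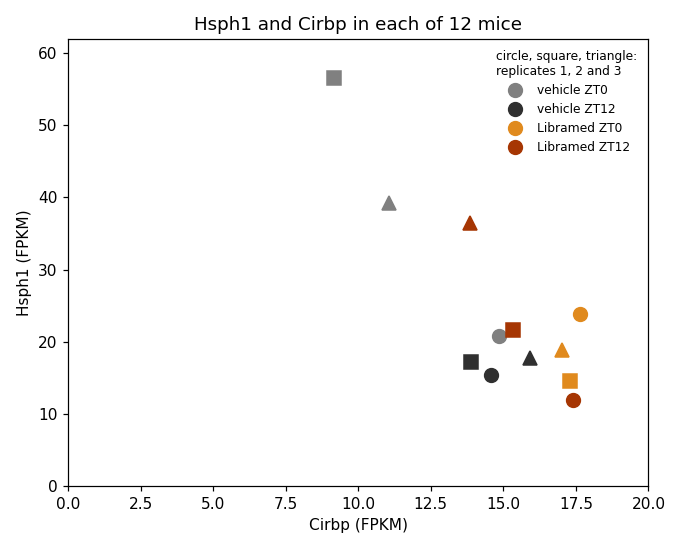
Hsph1 against Cirbp, both in FPKM, in each of the 12 mice, coloured by group. The 2 mice at the upper left, vehicle ZT0 replicates 2 and 3, have the 2 lowest Cirbp levels and the 2 highest Hsph1 levels, and the Libramed ZT0 mice sit at 17.0 to 17.7 FPKM of Cirbp.

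The genes whose pattern over the 12 mice was most like each of 3 anchors were found by the root mean square difference of centred log2 values, as a description. For Hspa8, whose own root mean square deviation was 0.286, they were Ahsa2 (0.111), Hsp90ab1 (0.140), R3hdm1 (0.141) and Smg8 (0.145), the first an activator of Hsp90 and the second the constitutive Hsp90 itself. For Hsph1, whose own deviation was 0.607, they were Hsp90aa1 (0.235), Chordc1 (0.294), Bag3 (0.296) and Dnajb1 (0.309), all chaperones or co-chaperones. For Cirbp, with 0.253, they were Gm2a (0.121), Cyp2j9 (0.141), Itpripl1 (0.145) and Kctd2 (0.146), none of them a cold shock gene.

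Bag3, the co-chaperone that links Hsp70 and HSPB8, was at 35.7, 44.7 and 35.7 FPKM in vehicle ZT0, at 15.5, 19.5 and 23.0 FPKM in vehicle ZT12, at 20.1, 16.1 and 20.8 FPKM in Libramed ZT0, and at 17.0, 27.9 and 41.3 FPKM in Libramed ZT12. Vehicle ZT12 and Libramed ZT0 were lower than vehicle ZT0 without overlap, as were 15.8% and 9.94% of all genes. Bag3 was picked for its likeness to Hsph1 over these same mice, so its differences are no separate test of that pattern. It fell from ZT0 to ZT12 in vehicle mice (log2 difference -0.97, SE 0.16, adjusted p of limma 0.0149), where 4.78% of all genes were called lower. It differed by 0.49 (SE 0.29) with Libramed, and had an interaction of 1.47 (SE 0.36, adjusted p of limma 0.519). Without the muscle-bearing library the last 2 values were 0.20 and 1.17. At ZT0 Libramed and vehicle differed by -0.99 (SE 0.14, adjusted p 0.264).

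Of the regulators of the response, Hsf1, the main stress activator, had mean levels of 8.66 to 10.3 FPKM in the 4 groups. It was not called in any of the 7 comparisons by limma, with log2 differences of -0.14 at ZT0 and 0.20 at ZT12 between treatments. At ZT12 the Libramed mice (9.73, 10.5 and 10.1 FPKM) lay above the vehicle mice (8.74, 9.01 and 8.22 FPKM). Of all genes 13.1% did not overlap there. Hsf4, known chiefly from the lens, rose from ZT0 to ZT12 over both treatments by 0.48 (SE 0.07, adjusted p of limma 0.000437), and Hsf2 fell by 0.23 on the log2 scale (SE 0.07, adjusted p 0.0313). In that comparison 29.7% of all genes were called. Hsbp1, which encodes a protein that binds and dampens HSF1, differed by 0.09 over the day.

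A wider list of cytosolic chaperones and co-chaperones, without the 10 genes, had 27 of 31 members tested. In vehicle mice limma called 1 higher and 3 lower at ZT12 than at ZT0. It called 3 higher and 1 lower in Libramed mice, and 3 in each direction over both treatments. Of all genes 5.62% were called higher and 4.78% lower in vehicle mice, 7.00% and 5.36% in Libramed mice, and 15.9% and 13.8% over both treatments. Over both treatments Dnajb6, an Hsp40 that suppresses aggregation, rose by 0.67 (SE 0.09), and Hspa2, an Hsp70 best known from testis, by 0.40 (SE 0.12). Dnajb2, another Hsp40, differed by -0.50 (SE 0.07) and Stip1, which couples Hsp70 to Hsp90, by -0.41 (SE 0.13), both called. Between treatments at ZT0 none of the 27 was called and 21 were lower in mean with Libramed, with a median of -0.12, and the median of the interaction was 0.20 with 21 of 27 positive. Both medians were nearer to 0 than those of the 8 heat-induced genes.

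Chaperones of other compartments are given beside these. Of the 8 subunits of the cytosolic chaperonin TRiC, Cct3 alone was called over both treatments, at -0.32 (SE 0.08), where 29.7% of all genes were. None of 8 mitochondrial chaperones was called in any of the 7 comparisons by limma. Of these 8, 3 had an unadjusted p under 0.05 over both treatments, near the 41.0% of all genes. The chaperones of the endoplasmic reticulum moved far more over the day. In each treatment 12 of 12 were lower in mean at ZT12, with medians of -1.25 in vehicle mice and -1.03 in Libramed mice. Limma called 12 of them lower in vehicle mice and 10 in Libramed mice, beside 4.78% and 5.36% of all genes. Between treatments at ZT0 they ran the same way as the heat-induced genes, 12 of 12 lower in mean with Libramed with a median of -0.44, and 9 had an unadjusted p under 0.05 (9.23% of all genes) with none called. Their interaction was positive in 11 of 12, with a median of 0.44, and 1 had an unadjusted p under 0.05, near the 6.63% of all genes. Among 13 genes of temperature-linked splicing and of the cold shock domain, limma called 2 lower and 1 higher over both treatments. Of all genes 29.7% were called there. The lower ones were Tra2a (-0.48, SE 0.11) and Tra2b (-0.35, SE 0.10), regulators of splicing, and the higher one was Srsf5 (0.29, SE 0.08). Of 6 immediate early genes tested, which mark recent stimulation, Junb fell by 0.95 on the log2 scale over both treatments (SE 0.23, adjusted p of limma 0.00816). At ZT0 3 of the 6, named after their values were seen, had an unadjusted p under 0.05, beside 9.23% of all genes, with none called. They were higher in mean with Libramed, Egr1 by 2.01, Ier2 by 0.77 and Jun by 0.63. The same 3 had a negative interaction at an unadjusted p under 0.05, beside 6.63% of all genes. The medians of the 6 were 0.29 at ZT0 and -0.46 for the interaction, of opposite sign to those of the heat-induced genes.

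**Figure D5:**
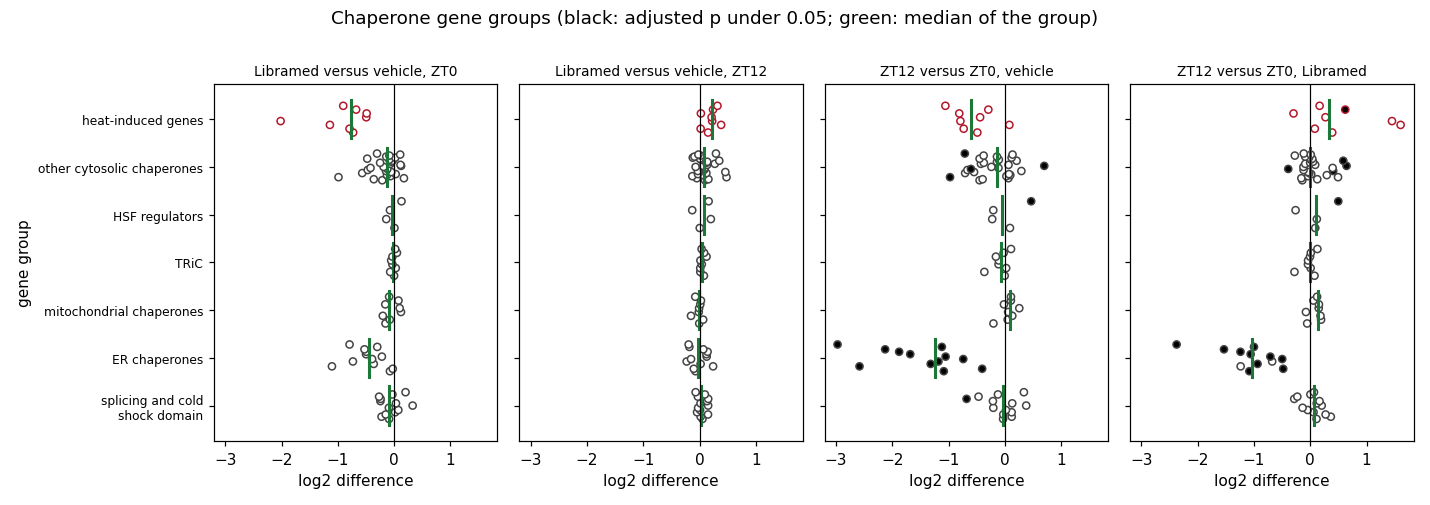
Log2 differences of single genes (points) in 7 gene groups for the 4 pairwise comparisons, on 1 shared axis; black points have an adjusted p under 0.05 by limma, and green bars are group medians. The heat-induced genes have medians of -0.76 and 0.22 for treatment at ZT0 and ZT12, the other cytosolic chaperones have a median of -0.12 at ZT0 with single genes as low as -0.99 (Bag3), and endoplasmic reticulum (ER) chaperones are far below 0 in both time comparisons.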

How the data were processed

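Liver RNA of 12 mice was sequenced in 4 groups of 3, assigned from the labels. The authors' methods describe oligo(dT)-selected, stranded single-end libraries aligned with ELAND to mm10, while the submitters' processing notes name TopHat and Cuffnorm and mm10 (GRCm38), and the labels name a kit that keeps no strand. The values deposited by the authors are FPKM per gene symbol, and were used as deposited. No counts or depths are given, so no counting interval can be made.

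FPKM were transformed to log2(FPKM + 1). The 9806 of 23849 symbols that averaged 1 FPKM or more over all samples were tested with limma 3.58.1 (R 4.3.3, variance trend, two-sided), with Benjamini-Hochberg adjustment over all of them and calls at 0.05. A symbol on several lines (289 extra lines) was taken from its most abundant line. Pairwise comparisons used their 6 samples, and the interaction and pooled comparisons all 12. Named genes are the 10 chosen by symbol, up to 4 called genes with the largest change per list (over both treatments), all heat shock factor regulators, and the 4 most alike genes of Hspa8, Hsph1 and Cirbp. The members and lists were chosen with earlier results of these data known. Correlations used 100000 permutations (SciPy 1.17.1). Replicate numbers are shared between groups, and same-numbered samples had correlations of deviations of -0.28 to 0.34, so no pairing was assumed. Scripts were tested on simulated data. Alternatives were another pseudocount (0.1), other filters and scalings, the Cyber-T test, a fit with a replicate block, and leaving out each mouse. The correlations without 1 library were added after seeing the data.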

Additional observations from a re-analysis of the deposited data

Results flagged for a closer look

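Of the 10 genes 2 had an exact permutation p under 0.05 for the interaction. The permutation shuffled treatment labels within each time, which assumes no treatment effect at either time. A small p therefore does not by itself show that the time difference depended on the treatment. For Hspb8 the interaction was 0.92 on the log2 scale (exact permutation p 0.01, limma adjusted p 0.337): its level was 150 FPKM at ZT0 and 122 at ZT12 in vehicle mice, and 93.5 and 144 FPKM in Libramed mice. Leaving out single mice gave interactions from 0.86 to 1.02, and without the muscle-bearing Libramed ZT12 replicate 3 it was 0.88. For Hspa8 the interaction was 0.71 (exact permutation p 0.03, limma adjusted p 0.665), with mean levels of 211 and 152 FPKM in vehicle mice and 147 and 177 FPKM in Libramed mice at ZT0 and ZT12. Leaving out single mice gave 0.52 to 0.91, the lowest without vehicle ZT0 replicate 2. These 2 were found among 10 genes tested, their permutation p were not adjusted for that number, and neither passed the adjustment over all genes.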

How the results depend on the processing

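The median log2 difference of the heat-induced genes kept its sign in all 7 comparisons under the 4 other settings that can change it (pseudocount, minimum of 5 FPKM and the 2 scalings); with single mice left out it was -0.14 to 0.38 for treatment at ZT12 and -0.19 to 0.04 for time over both treatments. The Cyber-T test called 4 of the 10 genes over the day in vehicle mice (limma 0), 4 in Libramed mice (limma 1) and 3 for treatment at ZT0 (limma 0). It called 14.1%, 16.2% and 0.704% of all genes there. In Libramed mice no minimum FPKM gave 0, median-ratio scaling 2 and 1 fit over all 12 samples 3, where quantile normalization called Rbm3 in place of Hspb8. Of all genes, these 4 settings called 639 of 17066, 1236 of 9805, 1462 of 9806 and 1252 of 9803. Leaving out single mice gave 0 to 7 calls in vehicle mice (7 without vehicle ZT0 replicate 1), 0 to 4 in Libramed mice (4 without Libramed ZT12 replicate 1, 0 without Libramed ZT0 replicate 1 or 3 or ZT12 replicate 2 or 3) and 0 to 1 over both treatments (Hspb1 without vehicle ZT0 replicate 1 or Libramed ZT12 replicate 3, Rbm3 without vehicle ZT12 replicate 3). Of all 9806 genes, 852 were called beside the 7 in vehicle mice and 1014 beside the 4 in Libramed mice. Over both treatments 2513 to 2845 were called where 1 of the 10 was. With Hspa1a and Hspa1b summed, an alternative chosen after seeing the data, the vehicle time difference was -0.70 in place of 0.08 for Hspa1a.

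Directions that turned with single mice left out, as ranges, were in vehicle mice over the day Hspa1a -0.12 to 0.40 and Rbm3 -0.027 to 0.17, and in Libramed mice Hsp90aa1 -0.12 to 0.35 and Hsph1 -0.21 to 0.56. For treatment at ZT12 they were Hspa1a -0.26 to 0.94, Hspa1b -0.54 to 1.09, Hsp90aa1 -0.18 to 0.28, Hsph1 -0.061 to 0.71, Dnajb1 -0.10 to 0.42, Hspb1 -0.21 to 0.24 and Cirbp -0.018 to 0.14. For time over both treatments they were Hspa1b -0.13 to 0.59, Hspa8 -0.19 to 0.038, Dnajb1 -0.21 to 0.045 and Cirbp -0.0013 to 0.15, and for treatment over both times Rbm3 -0.023 to 0.088. None of these was called with all mice, and the cause was not tested.

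The fit with the replicate number as a block called 0 of the 10 genes in vehicle mice, 1 in Libramed mice and 0 in the other comparisons, as without it, so it changed no call; over all genes it called 279 (1020 without the block) and 709 (1212), where the numbers are not known to pair the samples. Over all genes the Cyber-T test called 69 for treatment at ZT0 and 23 at ZT12 (limma 0 and 0), no minimum FPKM called 515 and 639 over the day, and 1 fit over all 12 samples called 1539 in vehicle mice. With unknown depth and 3 mice a group, differences of the size of the spread between mice were not detectable.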
